A study of Mus musculus with 48 samples.

Results

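The genes described here are NRF2 (gene Nfe2l2), its inhibitor KEAP1, targets of NRF2 and other antioxidant genes. They are 34 genes of the 25528 in the deposited count table, chosen by gene symbol for what they encode. No rule on their values was used, but earlier results of these data were known when they were chosen. All 34 were found in the table, and 33 passed the filter on low counts in the untransformed cells. The other one, Me1, cytosolic malic enzyme, stood at no more than 0.110 CPM (counts per M counts, M for mega) in any of those libraries. RNA had been sequenced from Cas9-Hoxb8 cells, mouse granulocyte-monocyte progenitors (GMP) that depend on a conditional Hoxb8 protein, and all groups share Hoxb8 and Cas9, wildtype included. The genotypes were wildtype, E6l2-KO (Cas9 editing of Ercc6l2), Trp53-KO (editing of the p53 gene) and E6l2-Trp53-KO (both). For each genotype there was a DMSO group, an Etoposide group (a topoisomerase II poison) and a high cell density group (HCD), all cultured for 48 h. Wells started with 0.25 M cells, or with 4 M at high density, and the labels do not say whether the latter held DMSO. The remaining groups were clones called Etoposide transformed, namely Trp53-KO clone 4 and clone 6 and E6l2-Trp53-KO clone 7 and clone 12, sampled with no drug given beforehand. With 3 libraries for each of 16 groups there were 48. The sources used here state neither the etoposide concentration nor how the 3 libraries of a clone relate to each other. No separately edited lines are named within a genotype, so genotype and edited line cannot be told apart. The p-values below therefore measure the spread between libraries of a group, which may be technical.

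NRF2 is a transcription factor that KEAP1 normally presents for degradation. When oxidants or electrophiles modify KEAP1, NRF2 builds up, pairs with small MAF proteins and binds antioxidant response elements in its target genes. The targets make glutathione and recycle thioredoxin, supply NADPH, conjugate reactive compounds, break down haem and store iron. BACH1 and BACH2 compete for the same elements, and haem takes BACH1 off the genes for haem oxygenase and ferritin. NRF2 is controlled largely through the stability of the protein, so the level of its mRNA need not follow its activity. In blood stem and progenitor cells the programme is known for keeping reactive oxygen species low.

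The median library held 27.4 M counts, with totals of 22.5 to 114 M overall and at most 40.9 M in the untransformed cells. Levels are CPM on the TMM scale, computed apart for the 36 untransformed libraries and for the 18 libraries used with the clones. Trp53 mRNA stood at 16.2 to 38.9 CPM in the 18 untransformed libraries labelled as edited for it, against 70.7 to 104.5 CPM in the 18 others. Ercc6l2 mRNA stood at 24.7 to 30.9 CPM in the 18 libraries labelled as edited for Ercc6l2 and at 26.2 to 31.7 CPM in the 18 others, which overlap, so its level does not check that label. E6l2-Trp53-KO Etoposide replicate 3, the untransformed library with the most counts, stood apart from its group. Results for the genes described here that rest on it are given without it. The library kit does not mark strand, so reads of overlapping genes cannot be told apart. All 12 genes of a GMP marker list were detected in every group, with summed levels of 6433 to 10730 CPM in untransformed libraries. Summed markers were low for mature neutrophils (13 genes, 16.8 to 49.4 CPM), for erythroid cells (13 genes, 3.23 to 45.2 CPM) and for B and T cells (12 genes, 54.9 to 94.7 CPM). Those of megakaryocytes (9 genes) summed to 80.5 to 284 CPM, and those of monocytes and macrophages (13 genes) to 915 to 2186 CPM. In a bulk sample, fewer cells of a type and less RNA per cell cannot be told apart.

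The antioxidant response element is usually searched by the core TGACNNNGC, read on both strands. Promoter sequences (RefSeq, GRCm38) were held for 28 of the 34 genes and not for Hmox1, Prdx6, Gsr, Gsta4, Gclc and Slc48a1. The core lay in the 250 bases before a start site in 7 of the 28 genes (25.0%), against 3112 of 27025 genes overall (11.5%). The 7 genes are G6pdx, Gclm, Mgst1, Nfe2l2, Prdx1, Sod1 and Txnrd1. A match describes these letters alone. The stretches for 5 genes that recur below are printed 5′ to 3′ on the gene's strand, with the core, or its reverse complement, in capitals. Prdx1 encodes a peroxiredoxin, G6pdx the first enzyme of the pentose phosphate route, Txnrd1 thioredoxin reductase and Gclm the modifier subunit of the enzyme that starts glutathione synthesis.
Prdx1 (chr4:116685440-116685500, plus strand): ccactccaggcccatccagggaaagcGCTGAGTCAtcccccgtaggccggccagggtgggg
G6pdx (chrX:74428903-74428963, minus strand): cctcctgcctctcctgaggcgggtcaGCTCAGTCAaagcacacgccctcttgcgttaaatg
Txnrd1 (chr10:82859088-82859148, plus strand): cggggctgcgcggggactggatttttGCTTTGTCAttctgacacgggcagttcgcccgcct
Gclm (chr3:122245397-122245457, plus strand): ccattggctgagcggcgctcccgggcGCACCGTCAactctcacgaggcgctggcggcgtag
Nfe2l2 (chr2:75704869-75704913, minus strand): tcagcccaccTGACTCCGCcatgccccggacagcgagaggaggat
The first base of the core lay 133 bases before the start in Prdx1, 57 in G6pdx, 92 in Txnrd1, 134 in Gclm and 240 in Nfe2l2. By GENCODE M21 the stretches of Prdx1, Gclm and Nfe2l2 are upstream of the annotated gene. Those of G6pdx and Txnrd1 lie within the annotated gene, before a start site that is not its outermost one.

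In wildtype DMSO cells the 34 genes ranged widely in level per transcript length. Txn1, thioredoxin, stood at 466 ± 21.3 CPM per kb (SD, n = 3) and Gpx1, the main cytosolic glutathione peroxidase, at 417 ± 45.4, and their libraries overlapped. Gpx4, which reduces lipid peroxides, followed at 205 ± 6.43 CPM per kb and the pentose phosphate enzymes Taldo1 and Tkt at 168 ± 6.26 and 127 ± 7.22. The ferritin heavy chain gene Fth1 (115 ± 3.81 CPM per kb) and Prdx1 (114 ± 2.44) came next and overlapped, above Sod1, cytosolic superoxide dismutase, at 101 ± 1.84. The ferritin light chain gene Ftl1 stood at 32.0 CPM per kb, but its near-identical copy Ftl1-ps1 took most of the counts of both rows (1358 CPM summed), so its place in the order is uncertain. Nfe2l2 was in the middle at 14.8 ± 0.792 CPM per kb, and Keap1 at 10.2 ± 0.966 overlapped with Gclc, the catalytic subunit for glutathione synthesis. The classical inducible genes were near the bottom. Hmox1, haem oxygenase 1, stood at 2.84 ± 0.260 CPM per kb, Osgin1 at 0.207 ± 0.0411 and Nqo1, a quinone reductase, at 0.180 ± 0.0853, the last pair overlapping. Together the 34 genes took 0.531% to 0.547% of the TMM-scaled counts in wildtype DMSO libraries and 0.650% to 0.675% with etoposide. In E6l2-KO cells these shares were 0.538% to 0.565% and 0.682% to 0.710%, in Trp53-KO cells 0.531% to 0.553% and 0.541% to 0.575%, and in E6l2-Trp53-KO cells 0.521% to 0.549% and 0.495% to 0.534%. The 0.495% is E6l2-Trp53-KO Etoposide replicate 3 alone. Replicates 1 and 2 of that group, at 0.534% and 0.528%, lay within the range of their DMSO libraries.

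Etoposide raised most of the 34 genes in wildtype and E6l2-KO cells and none in Trp53-KO cells by the test used. That test is edgeR's quasi-likelihood F test, with Benjamini-Hochberg adjustment over all 14059 genes tested, and a gene is called at an adjusted p under 0.05. In wildtype cells 21 of the 33 genes tested were higher and 0 lower, where 20.3% of all genes tested were higher and 21.1% lower (41.5% called). Their median log2 fold change was 0.32, against 0.00 over all genes. In E6l2-KO cells 25 were higher and 0 lower, where 18.9% of all genes were higher and 16.1% lower (35% called), with a median of 0.29 on the log2 scale. Higher in both genotypes were 18 genes, and the share of all genes higher in both was not counted. Of the genes tested, Gclc, Mgst1, Mgst2, Gpx1 and Keap1 were called in neither, and Me1 was not tested. Both comparisons have their own DMSO libraries. Of 7 genes with the core in their promoter 5 rose in wildtype and 6 in E6l2-KO cells, and of 21 without it 12 and 14 did.

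**Figure D1:**
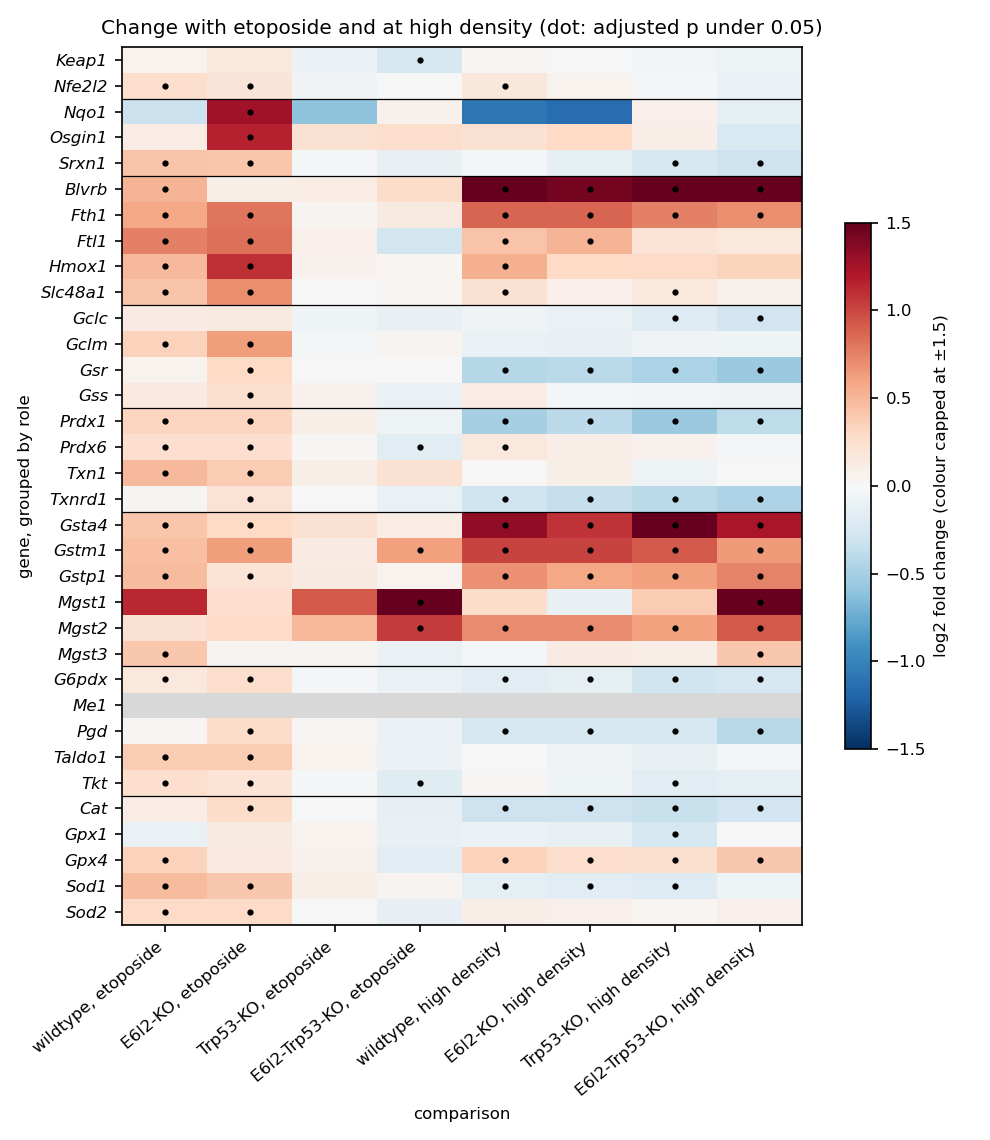
Log2 fold change of each of the 34 genes (rows, by role) against DMSO of the same genotype, for etoposide and for high density in the 4 genotypes (columns). The colour scale stops at 1.5 in either direction, dots mark genes called at an adjusted p under 0.05 and grey marks Me1, which was not tested. Dots fill most of the etoposide columns of wildtype and E6l2-KO cells (21 and 25 genes), none of that of Trp53-KO and few of that of E6l2-Trp53-KO (6), while both directions occur in all 4 columns of high density.

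Genes of haem and iron handling rose together, 5 of 5 in wildtype and 4 of 5 in E6l2-KO cells. Fth1 (ENSMUSG00000024661) stood at 414, 398 and 387 CPM in wildtype DMSO libraries and at 592, 605 and 600.1 CPM with etoposide. In E6l2-KO cells the levels were 412, 386 and 389 CPM and, with etoposide, 648, 779 and 637 CPM. No treated library overlapped with a DMSO library in either genotype. Fth1 rose by 0.58 ± 0.065 on the log2 scale in wildtype cells (SE, 3 libraries against 3; adjusted p = 2.87e-08) and by 0.80 ± 0.065 in E6l2-KO cells (adjusted p = 7.81e-11). Slc48a1, a carrier of haem out of lysosomes, stood at 82.7, 82.7 and 85.6 CPM in wildtype DMSO libraries and at 111, 110.3 and 116 CPM with etoposide, and it rose by 0.42 ± 0.044 (adjusted p = 6.45e-09). In E6l2-KO cells it went from 92.9, 86.2 and 85.3 CPM to 143, 146 and 139 CPM, a rise of 0.69 ± 0.043 (adjusted p = 9.07e-14). Here too the groups were fully separate.

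Hmox1 (ENSMUSG00000005413), which opens the haem ring and frees its iron, was at 4.52, 5.43 and 4.96 CPM in wildtype DMSO libraries and at 6.64, 7.79 and 6.49 CPM with etoposide. In E6l2-KO cells it was at 7.36, 4.73 and 5.54 CPM and at 13.2, 13.8 and 10.9 CPM. The rise was 0.49 ± 0.16 on the log2 scale in wildtype (adjusted p = 0.016) and 1.10 ± 0.15 in E6l2-KO cells (adjusted p = 1.89e-06). The wildtype call was lost without Etoposide replicate 2 and with offsets for transcript length and GC share. Blvrb, biliverdin reductase B, rose in wildtype cells from 5.41, 6.41 and 5.76 to 7.77, 7.67 and 9.40 CPM (0.50 ± 0.11, adjusted p = 0.00028). In E6l2-KO cells its 7.18 to 8.67 CPM with etoposide overlapped with 7.34 to 7.89 CPM in DMSO (adjusted p = 0.544).

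The ferritin light chain gene Ftl1 rose from 47.6, 39.5 and 41.5 CPM to 71.2, 72.7 and 72.9 CPM in wildtype cells (0.75 ± 0.12, adjusted p = 4.75e-06). Its near-identical copy Ftl1-ps1 held 96.0% to 97.6% of the counts of both rows in every group, so counts may have been split between them. With both rows summed the wildtype rise was 0.62 (adjusted p = 2.48e-05) and that in E6l2-KO cells 0.74 (adjusted p = 4.42e-06). The light chain thus moved with the heavy chain whichever row was read.

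**Figure D2:**
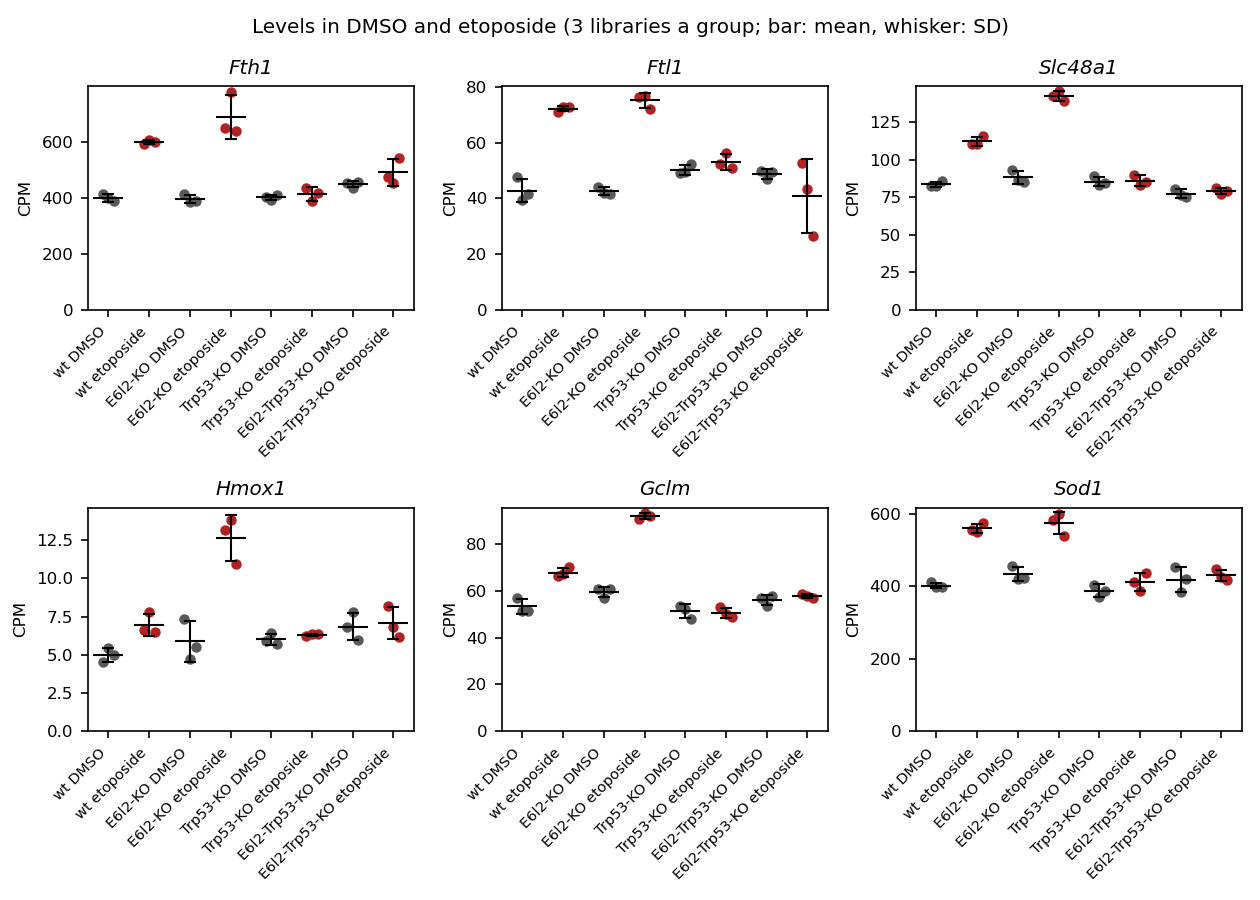
Levels in CPM (linear axes from 0) of Fth1, Ftl1, Slc48a1, Hmox1, Gclm and Sod1 in DMSO and Etoposide libraries of the 4 genotypes. Each point is a library and each bar a mean with its SD over 3 libraries. In wildtype and E6l2-KO cells the Etoposide points lie above all DMSO points for these 6 genes, and in Trp53-KO cells they overlap, as for Slc48a1 at 82.9 to 90.0 against 82.9 to 88.8 CPM.

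Of the enzymes that make and recycle glutathione, 1 of 4 rose in wildtype and 3 of 4 in E6l2-KO cells. Gclm stood at 57.0, 51.6 and 51.6 CPM in wildtype DMSO libraries and at 66.3, 67.3 and 70.1 CPM with etoposide, a rise of 0.35 ± 0.046 on the log2 scale (adjusted p = 5.17e-07). In E6l2-KO cells it went from 60.7, 57.0 and 60.9 CPM to 90.6, 93.4 and 92.0 CPM (0.63 ± 0.045, adjusted p = 3.21e-12). Gclc, its partner subunit, was not called in either genotype (0.12 and 0.13 on the log2 scale). Gsr, glutathione reductase, and Gss, glutathione synthetase, rose in E6l2-KO cells by 0.30 and 0.24, and the call for Gss was lost on leaving out any of 4 libraries. Of the 6 glutathione transferases 4 rose in wildtype and 3 in E6l2-KO cells. Gstm1 rose by 0.45 and 0.62 on the log2 scale, Gstp1 by 0.48 and 0.20 and Gsta4 by 0.41 and 0.30, while Mgst3 was called in wildtype cells (0.41). With the offsets for length and GC share Gstm1 changed by 0.22 in wildtype cells and Gstp1 by 0.26, both still called, and the calls for Gsta4 (0.19 and 0.12), for Gstp1 in E6l2-KO cells (0.04) and for Mgst3 (0.14) were lost. Without E6l2-KO Etoposide replicate 1 the Gstp1 call in those cells was lost too. Gstm and Gstp genes have close copies, of which Gstm4 had a median of 128.5 counts per library and Gstp2 of 23, so their counts are uncertain to that extent.

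In the thioredoxin group 3 of 4 rose in wildtype and 4 of 4 in E6l2-KO cells. Txn1 stood at 507, 497 and 464 CPM in wildtype DMSO libraries and at 684, 677 and 699 CPM with etoposide (0.49 ± 0.084, adjusted p = 2.36e-05). Prdx1 rose by 0.32 in both genotypes and Prdx6 by 0.25 in both, on the log2 scale. Txnrd1 was called in E6l2-KO cells, from 147, 144 and 153 CPM to 168, 171 and 176 CPM (0.22 ± 0.045, adjusted p = 0.000432), and not in wildtype, where libraries held 147 to 149 CPM in DMSO and 149 to 155 CPM with etoposide. Among enzymes against superoxide and peroxide, Sod1 rose by 0.48 and 0.41 and mitochondrial Sod2 by 0.29 in both genotypes. Gpx4 rose in wildtype cells (0.35) and catalase (Cat) in E6l2-KO cells (0.27), and Gpx1 was called in neither. With the offsets the call for Cat was lost (0.19), Gpx4 changed by 0.14 and Gpx1 was called lower in wildtype cells (-0.33). Of the pentose phosphate enzymes, Taldo1 rose by 0.39 and 0.38, Tkt by 0.25 and 0.21 and G6pdx by 0.16 and 0.27. Pgd rose in E6l2-KO cells (0.27) and was not called in wildtype cells (0.03). The call for G6pdx in wildtype cells was lost with the offsets (0.07).

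The inducible genes differed among themselves. Srxn1, sulfiredoxin, which repairs overoxidised peroxiredoxins, rose by 0.42 in both genotypes, from 10.04, 9.07 and 9.82 CPM to 12.4, 13.1 and 13.3 CPM in wildtype cells. Osgin1 rose in E6l2-KO cells, from 0.464, 0.522 and 0.419 CPM to 1.00, 0.928 and 1.19 CPM (1.16 ± 0.23, adjusted p = 0.000221), and in wildtype its libraries overlapped. Nqo1, the usual reporter of NRF2 activity, stood under 1 CPM throughout. In E6l2-KO cells it was at 0.166, 0.0696 and 0.479 CPM in DMSO and at 0.543, 0.649 and 0.597 CPM with etoposide (1.26 ± 0.46, adjusted p = 0.033), a call lost in 8 alternatives, and its change was 2.33 without DMSO replicate 3. In wildtype it was at 0.430, 0.182 and 0.225 CPM and at 0.261, 0.276 and 0.139 CPM with etoposide, which was not called. Nfe2l2 itself rose by 0.26 ± 0.059 in wildtype (58.3, 57.9 and 52.9 CPM to 69.3, 66.7 and 66.6 CPM, adjusted p = 0.000547) and by 0.20 ± 0.059 in E6l2-KO cells (57.1, 58.1 and 57.3 CPM to 67.9, 67.1 and 62.7 CPM, adjusted p = 0.00949). Keap1 overlapped between wildtype groups, at 42.7, 49.0 and 51.5 CPM and 47.5, 50.7 and 50.2 CPM, and was not called in either genotype.

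Beside these rises, the summed GMP markers went from 7617 to 8148 CPM in wildtype DMSO libraries to 9024 to 9457 CPM with etoposide, and in E6l2-KO cells from 7481 to 8480 CPM to 9532 to 9634 CPM. Summed mast cell and basophil markers (17 genes) went from 2118 to 2163 CPM to 2686 to 2732 CPM in wildtype and from 2494 to 2580 CPM to 2790 to 2825 CPM in E6l2-KO cells, with Fcer1a, the IgE receptor chain, at 0 in all 4 groups. Genes with short and GC-rich transcripts also tended to be higher with etoposide in wildtype cells. Spearman's rho across genes, which are not independent, was -0.262 with length and 0.364 with GC share. The GC trend was not particular to the drug. In DMSO its rho was 0.403 for E6l2-KO and 0.377 for Trp53-KO against wildtype, and for high density in wildtype cells 0.329. For etoposide it was 0.29 in E6l2-KO, 0.0272 in Trp53-KO and -0.321 in E6l2-Trp53-KO cells. The part of these shifts in the result was not tested beyond the offsets for length and GC share. Under them 17 genes were higher and 1 lower in wildtype cells, and 22 higher in E6l2-KO cells. Medians of the genes described here were 0.23 and 0.24, against 0.01 and 0.01 over all genes. The share of all genes called under the offsets was not counted.

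Whether the response differs by genotype was tested as the difference between the genotypes' responses. Between E6l2-KO and wildtype cells edgeR called 0 of 33 genes, where 0.0142% of all genes were called. DESeq2 called 2 of them, and 20 genes in all. In edgeR 11 had an unadjusted p under 0.05, as did 1021 of all 14059 genes. The larger rise of Hmox1 in E6l2-KO cells (a difference of 0.61 ± 0.22, adjusted p = 0.523) and those of Slc48a1 (0.27 ± 0.061) and Gclm (0.28 ± 0.065, both adjusted p = 0.13) were therefore not called as different.

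In Trp53-KO cells etoposide gave 0 calls among the 33 genes by edgeR, where 0% of all genes were called. DESeq2 called 0 of them too, and 0 of all genes. In edgeR 4 had an unadjusted p under 0.05, as did 468 of all 14059 genes. Fth1 stood at 405, 392 and 409 CPM in DMSO and at 435, 387 and 419 CPM with etoposide, and Hmox1 at 5.91, 6.42 and 5.68 CPM and at 6.22, 6.33 and 6.35 CPM. Nfe2l2 stood at 60.9, 66.6 and 56.9 CPM and at 57.4, 62.9 and 57.3 CPM. In these 3 genes the groups overlapped. They did not overlap in Mgst1, Mgst2, Osgin1 and Prdx1, none of which was called. The share of all genes without overlap was not counted, so no response is read from these genes. Mgst2, a microsomal glutathione transferase, stood at 3.33, 3.55 and 3.27 CPM in DMSO and at 4.73, 4.41 and 5.19 CPM with etoposide (0.50 ± 0.14, adjusted p = 0.84). The response of Trp53-KO cells was lower than that of wildtype cells in 14 of 33 genes and higher in 0, where 11.1% of all genes were lower and 12.1% higher (23.2% called), with a median of -0.28 on the log2 scale against 0.00 over all genes. The differences were -0.67 ± 0.16 for Ftl1 (adjusted p = 0.00382), -0.54 ± 0.092 for Fth1 (adjusted p = 0.000116) and -0.41 ± 0.062 for Slc48a1 (adjusted p = 2.15e-05). For Srxn1 the difference was -0.44 ± 0.12 (adjusted p = 0.00682), for Txn1 -0.40 ± 0.12 (adjusted p = 0.0156) and for Sod1 -0.39 ± 0.088 (adjusted p = 0.00216). Nfe2l2 differed by -0.32 ± 0.083 (adjusted p = 0.00636), and Hmox1, at -0.42 ± 0.23, did not pass (adjusted p = 0.185). The other genes that differed were Gclm, Gstp1, Taldo1, Tkt, Sod2, Prdx1 and Prdx6. With the offsets for length and GC share the median was -0.15, against -0.02 over all genes. Of the 33 genes 12 were lower and Gpx1 was higher (0.36, adjusted p = 0.0353), and the share of all genes called was not counted. The differences of Txn1 (-0.20) and Gstp1 (-0.15) were then not called, those of Taldo1 and Ftl1 were -0.19 and -0.44, and that of Sod2 was -0.46 in place of -0.29. On leaving out single libraries the calls for Prdx1 and Sod2 were each lost in 3 fits and that for Prdx6 in 1.

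In E6l2-Trp53-KO cells 3 genes rose with etoposide and 3 fell, where 5.97% of all genes were higher and 7.25% lower (13.2% called). The genes that rose are glutathione transferases. Mgst2, which also makes leukotriene C4, went from 2.74, 2.82 and 2.35 CPM to 5.17, 5.40 and 5.67 CPM (1.05 ± 0.14 on the log2 scale, adjusted p = 1.0e-05). Gstm1 went from 39.2, 33.8 and 32.4 CPM to 52.4, 48.5 and 59.1 CPM (0.61 ± 0.088, adjusted p = 2.65e-05), and Mgst1, at 0.0297 to 0.188 CPM in DMSO and 0.513 to 0.623 CPM with etoposide, was called higher (2.11 ± 0.48, adjusted p = 0.00443) but not when its groups were fitted alone. The treated libraries of these 3 genes did not overlap with DMSO. Keap1 (-0.24), Tkt (-0.19) and Prdx6 (-0.17) were lower, and these calls were lost without Etoposide replicate 3, where Keap1 stood at 39.2 CPM against 47.1 and 50.3 CPM. Without that library 3 of the genes described here were called in all, and without replicate 1 there were 14. The share of all genes called in those fits was not counted. Ftl1 was low in Etoposide replicate 3 too, at 52.8, 43.5 and 26.5 CPM with etoposide against 46.9 to 49.99 CPM in DMSO (-0.27, adjusted p = 0.114). With Ftl1-ps1 summed, the level was 1474, 1270.4 and 1235 CPM in DMSO and 1434, 1418 and 2282 CPM with etoposide, so replicate 3 was then the high one. The summed change was 0.37 (adjusted p = 0.0205), and without replicate 3 it was 0.08 (adjusted p = 0.608). Hmox1 was at 6.79, 7.77 and 5.97 CPM in DMSO and 8.21, 6.82 and 6.14 CPM with etoposide, which overlap. The etoposide response of E6l2-Trp53-KO against Trp53-KO cells differed in 0 of 33 genes by edgeR, where 0.206% of all genes were called. DESeq2 called 1 of them, and 69 genes in all. In edgeR 6 had an unadjusted p under 0.05, as did 1920 of all 14059 genes.

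High cell density moved the genes in both directions, and 13 of them were called the same way in all 4 genotypes. How many of all genes did so was not counted, so the 13 have no background share beside them. In wildtype cells 12 rose and 7 fell, where 24.9% of all genes were higher and 23.6% lower (48.5% called). In E6l2-KO cells 8 rose and 7 fell (22.3% and 18.4% of all genes, 40.7% called), in Trp53-KO cells 8 and 11 (23.9% and 20.9%, 44.7% called), and in E6l2-Trp53-KO cells 9 and 8 (25.5% and 20.7%, 46.2% called). The shares of these genes called, 45.5% to 57.6%, lay near or somewhat above those of all genes. Of those 13 genes 7 rose, namely Gsta4, Gstm1, Gstp1, Mgst2, Blvrb, Fth1 and Gpx4, and 6 fell, namely G6pdx, Pgd, Gsr, Cat, Prdx1 and Txnrd1. Of these, the call for Gpx4 in Trp53-KO cells was lost in 2 alternatives and that for G6pdx in E6l2-KO cells in 6. Taldo1, Gclm, Gss, Nqo1, Osgin1, Sod2, Keap1 and Txn1 were called in none.

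Among the genes that rose, Blvrb was at 5.41, 6.41 and 5.76 CPM in wildtype DMSO libraries and at 19.6, 20.7 and 18.3 CPM at high density. Its rise was 1.73 ± 0.097 on the log2 scale in wildtype cells (adjusted p = 9.86e-16), 1.43 in E6l2-KO, 1.81 in Trp53-KO and 1.62 in E6l2-Trp53-KO cells. Gsta4, which conjugates the lipid aldehyde hydroxynonenal to glutathione, went from 9.46, 10.2 and 9.33 CPM to 25.4, 23.6 and 23.7 CPM in wildtype cells (1.33 ± 0.083, adjusted p = 1.06e-14). Across the genotypes it rose by 1.09 to 1.54. Gstm1 rose by 0.63 to 1.01, from 46.7, 43.9 and 43.3 CPM to 91.0, 89.6 and 88.8 CPM in wildtype cells. Gstp1 rose by 0.58 to 0.74 and Mgst2 by 0.61 to 0.92 on the log2 scale. These 4 transferases rose in each genotype without overlap between libraries. In E6l2-Trp53-KO cells Mgst1 and Mgst3 were called too, with overlap, and these calls were lost in 3 and 4 alternatives.

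Fth1 rose from 414, 398 and 387 CPM to 714, 741 and 749 CPM in wildtype cells (0.88 ± 0.066, adjusted p = 6.63e-13) and by 0.70 to 0.88 across the genotypes. Hmox1 rose in wildtype cells, to 7.91, 7.10 and 6.59 CPM (0.54 ± 0.16, adjusted p = 0.00646). In the other genotypes its log2 change of 0.29 to 0.33 was not called, and the difference between genotypes was not called either. Ftl1 rose by 0.43 in wildtype and 0.50 in E6l2-KO cells, but with Ftl1-ps1 summed the changes were 0.20 (adjusted p = 0.117) and 0.22 (adjusted p = 0.089). Heavy chain transcripts were thus higher in all 4 genotypes, and the light chain rows gave no call that held when summed.

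The genes that fell act in the glutathione and thioredoxin cycles (Gsr, Txnrd1, Prdx1), supply NADPH (Pgd, G6pdx) or break down hydrogen peroxide (Cat). Gsr stood at 145, 129 and 123 CPM in wildtype DMSO libraries and at 89.3, 98.8 and 107 CPM at high density, a fall of 0.43 on the log2 scale (SE 0.063, adjusted p = 1.12e-06), and across the genotypes it changed by -0.41 to -0.56. Txnrd1 went from 147, 149 and 149 CPM to 117, 116 and 129 CPM (-0.30 ± 0.045, adjusted p = 2.36e-06) and changed by -0.30 to -0.46 across the genotypes. Prdx1 went from 351, 349 and 337 CPM to 243, 234 and 256 CPM (-0.50 ± 0.057, adjusted p = 9.33e-09). For all 3 the libraries of wildtype cells were separate. Cat changed by -0.31 and Pgd by -0.26 in the same cells, and G6pdx by -0.16, a call lost in 4 alternatives. Nfe2l2 rose slightly in wildtype cells (58.3, 57.9 and 52.9 CPM to 62.1, 63.8 and 64.7 CPM, 0.17 ± 0.059, adjusted p = 0.0139), and the call was lost without DMSO replicate 3. Keap1, at 45.2, 49.8 and 49.8 CPM at high density, and Nqo1, at 0.0682, 0.118 and 0.198 CPM, were not called. Of the 7 genes with the core in their promoter 1 rose and 4 fell in wildtype cells, and of the 21 without it 7 rose and 2 fell.

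**Figure D3:**
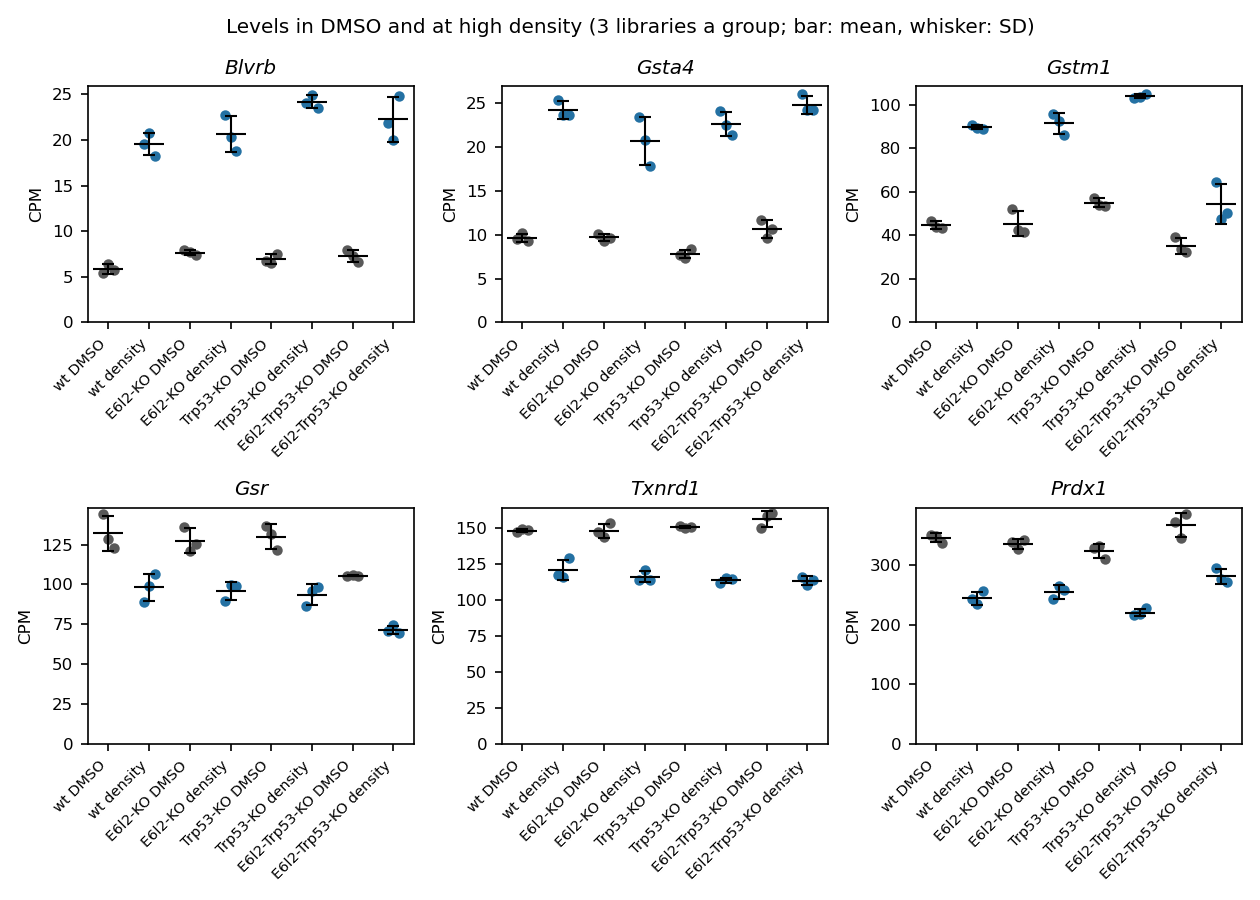
Levels in CPM (linear axes from 0) of Blvrb, Gsta4, Gstm1, Gsr, Txnrd1 and Prdx1 in DMSO and high density (HCD) libraries of the 4 genotypes. Each point is a library and each bar a mean with its SD over 3 libraries. The first 3 genes are higher at high density in every genotype, Blvrb by 1.43 to 1.81 on the log2 scale, and the last 3 are lower, Gsr by -0.41 to -0.56.

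No gene of the 33 was called by edgeR for a difference in density response between genotypes. Against wildtype, E6l2-KO cells gave 0 calls (0.00711% of all genes called, 2 of the genes here at an unadjusted p under 0.05, 0 by DESeq2) and Trp53-KO cells 0 (0.0925%, 2 and 0). E6l2-Trp53-KO against Trp53-KO cells gave 0 as well (0.334%, 3 and 0). Of all 14059 genes, 611, 2025 and 1127 had an unadjusted p under 0.05 in edgeR, in the same order. DESeq2 called 2, 79 and 81 genes in all. Gsta4, which rose in all 4 genotypes, differed by -0.32 ± 0.12 between E6l2-Trp53-KO and Trp53-KO cells (adjusted p = 0.383). Monocyte and macrophage markers summed to 1352 to 1561 CPM in wildtype DMSO libraries and 1950 to 2018 CPM at high density, with C1qa, C1qb and Marco at 0 in both. Their part in the result was not tested.

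Without stress, few of the genes differed between E6l2-KO or Trp53-KO cells and wildtype cells. Against wildtype in DMSO, E6l2-KO cells had 2 of 33 genes higher, where 1.56% of all genes were higher and 4.05% called, namely Blvrb (0.38 on the log2 scale) and Gclm (0.16). The first call was lost in 6 alternatives and the second in 7. Trp53-KO cells had Mgst1 and Gstm1 higher (1.73 and 0.30) and Gsta4 lower (-0.31), 3 of 33 where 3.54% of all genes were higher and 5.49% lower (9.03% called), and between 0 and 2 were called when a library was left out. Editing of Ercc6l2 on top of Trp53 went with more: 3 genes were higher and 7 lower in E6l2-Trp53-KO than in Trp53-KO cells, where 8.14% of all genes were higher and 6.79% lower (14.9% called). Gstm1 stood at 39.2, 33.8 and 32.4 CPM against 57.3, 53.9 and 53.6 CPM (-0.65 ± 0.089, adjusted p = 1.06e-06). Gsr stood at 105, 106 and 106 CPM against 137, 132 and 122 CPM (-0.30 ± 0.062, adjusted p = 0.000537). Both genes were separate between the groups. Nfe2l2, at 49.6, 52.8 and 52.2 CPM against 60.9, 66.6 and 56.9 CPM, was lower by -0.26 ± 0.059 (adjusted p = 0.00185), and this call was lost without Trp53-KO DMSO replicate 2. G6pdx (-0.22), Pgd (-0.23), Slc48a1 (-0.14) and Mgst1 were lower too, and Gsta4 (0.45), Gstp1 (0.28) and Prdx1 (0.18) higher. The calls for Slc48a1, Mgst1 and Prdx1 were lost in 4, 4 and 3 alternatives. Against E6l2-KO in DMSO, E6l2-Trp53-KO cells were lower in 5 genes, Gstm1 (-0.37), Gsr (-0.27), G6pdx (-0.22), Slc48a1 (-0.19) and Pgd (-0.18), and higher in 0, where 8.88% of all genes were higher and 7.96% lower (16.8% called). The call for Pgd was lost in 6 alternatives and that for Gstm1 without E6l2-KO DMSO replicate 1 (-0.26). Keap1, Nqo1 and Hmox1 were called in none of these 4 comparisons.

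The etoposide transformed clones differed far more from DMSO cells of their genotype, as did most genes of the transcriptome. These fits tested 14403 genes. Of the 34 genes, 16 were higher and 15 lower in Trp53-KO clone 4 (41.7% and 38.7% of all genes, 80.4% called), 17 and 11 in Trp53-KO clone 6 (38.5% and 38.9%, 77.5% called), 19 and 10 in E6l2-Trp53-KO clone 7 (40.6% and 38.9%, 79.5% called) and 19 and 11 in E6l2-Trp53-KO clone 12 (40.4% and 39.3%, 79.7% called). The shares of the 34 genes called, 82.4% to 91.2%, lie near or somewhat above the background, so the size and direction for each gene say more. Their median log2 fold changes were 0.13 and 0.16 in clones 4 and 6, against 0.07 and 0.00 over all genes. In clones 7 and 12 they were 0.54 and 0.59, against 0.03 and 0.02. In all 4 clones 14 genes were higher, namely Me1, Gstm1, Gstp1, Blvrb, Fth1, Ftl1, Hmox1, Slc48a1, Osgin1, Srxn1, Cat, Gpx4, Nfe2l2 and Prdx1. In all 4, 8 genes were lower, namely Pgd, Tkt, Gclm, Gsr, Gsta4, Gpx1, Txn1 and Txnrd1. The share of all genes called the same way in all 4 clones was not counted. Called in both directions among the clones were G6pdx, Taldo1, Mgst3 and Keap1. The 2 clones of a genotype share its DMSO libraries.

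Beside these changes, the 17 mast cell and basophil markers summed to 142000 to 187100 CPM in clone libraries, all 17 detected in every clone, against 1704 to 2411 CPM in DMSO libraries, with Fcer1a at 0 in both DMSO groups. GMP markers summed to 5206 to 6271 CPM in the clones against 6364 to 8301 CPM. Erythroid markers summed to 130 to 155 CPM in the clones against 3.10 to 13.5 CPM, megakaryocyte markers to 519 to 854 CPM against 76.6 to 158 CPM, and monocyte and macrophage markers to 199 to 578 CPM against 1017 to 1755 CPM. Neutrophil markers summed to 6.30 to 30.0 CPM and B and T cell markers to 3.97 to 6.33 CPM, against 25.1 to 30.0 CPM and 66.0 to 69.4 CPM. The GMP label of the clones thus stands beside a mast cell and basophil marker level that the untransformed cells did not have, and its part in the results on the clones was not tested.

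**Figure D4:**
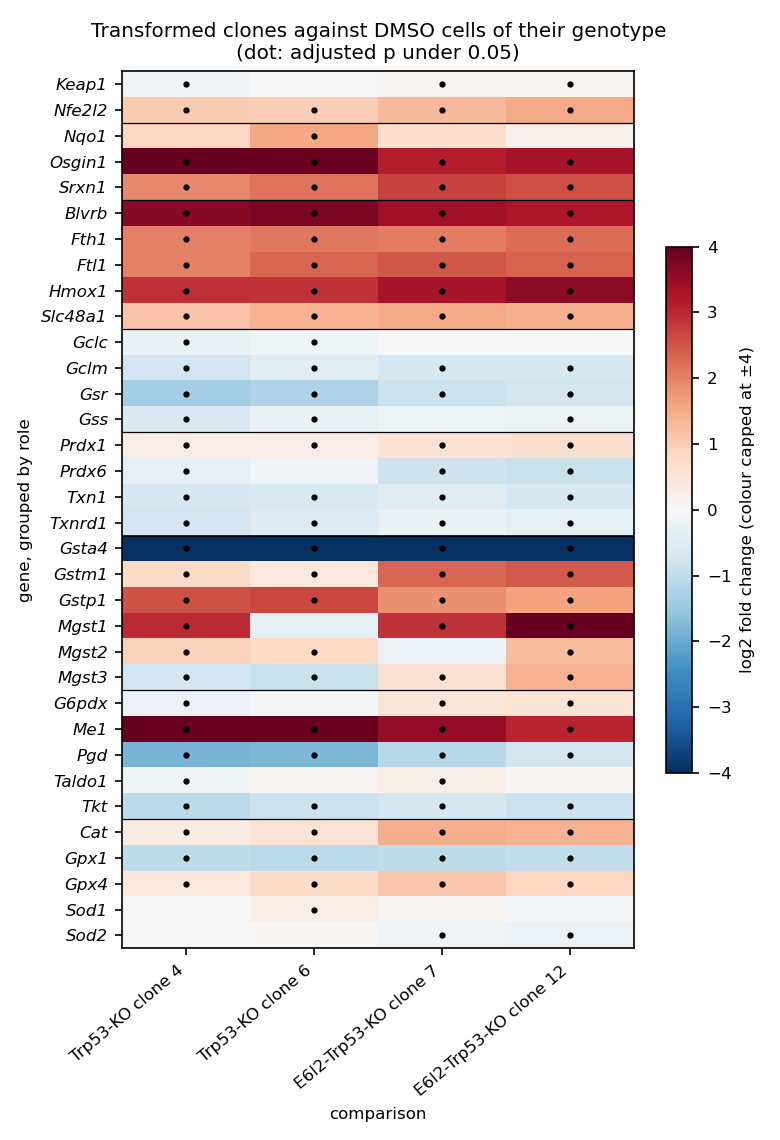
Log2 fold change of each of the 34 genes (rows, by role) in the 4 etoposide transformed clones (columns), each against the 3 DMSO libraries of its genotype. The colour scale stops at 4 in either direction and dots mark genes called at an adjusted p under 0.05. All 5 genes of haem and iron handling are higher in every clone, and Gsta4 is the strongest decrease in each (-4.87 to -7.61).

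Haem and iron genes were higher in all 4 clones, 5 of 5 in each. Hmox1 stood at 5.62, 6.17 and 5.34 CPM in Trp53-KO DMSO libraries and at 45.5, 42.8 and 42.6 CPM in clone 4 and 42.2, 44.7 and 40.2 CPM in clone 6. In E6l2-Trp53-KO cells it stood at 6.48, 7.48 and 5.75 CPM in DMSO, at 61.8, 62.5 and 67.3 CPM in clone 7 and at 78.7, 74.9 and 81.7 CPM in clone 12. Every clone library was far above every DMSO library, with log2 fold changes of 2.93 ± 0.077, 2.89 ± 0.079, 3.28 ± 0.073 and 3.58 ± 0.072 for clones 4, 6, 7 and 12 (adjusted p of 2.76e-19 or lower). Blvrb, which reduces flavins and biliverdin, went from 6.44, 6.20 and 7.09 CPM to 89.5, 79.8 and 76.4 CPM in clone 4 and was higher by 3.24 to 3.81 on the log2 scale in the clones. Fth1 went from 385, 377 and 384 CPM to 1749, 1505 and 1416 CPM in clone 4 and was higher by 2.03 to 2.24. Ftl1 with Ftl1-ps1 summed was higher by 2.29 to 2.68.

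Of the inducible genes, Srxn1 and Osgin1 were higher in all 4 clones. Srxn1 stood at 8.29, 8.02 and 8.38 CPM in Trp53-KO DMSO libraries, at 31.1, 30.7 and 30.8 CPM in clone 4 and at 38.9, 36.3 and 36.4 CPM in clone 6. In E6l2-Trp53-KO cells it went from 8.81, 9.38 and 9.60 CPM to 59.9, 62.9 and 59.4 CPM in clone 7 and 53.7, 55.4 and 55.5 CPM in clone 12. The changes were 1.91 to 2.71 on the log2 scale. Osgin1 went from 0.534, 0.530 and 0.607 CPM to 10.7, 7.99 and 9.09 CPM in clone 4 and was higher by 3.13 to 4.06. Nqo1 remained low, at 0.188 to 0.829 CPM in the clones, and was called only in clone 6 (0.276, 0.796 and 0.340 CPM against 0.0942, 0.227 and 0.162 CPM, 1.53 ± 0.51, adjusted p = 0.00945), a call lost without replicate 2 of that clone or replicate 1 of its DMSO group. Hmox1 was thus above 40 CPM and Nqo1 below 1 CPM in every clone library.

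Nfe2l2 was higher in every clone, at 119, 120.2 and 119.9 CPM in clone 4 against 58.0, 63.9 and 53.5 CPM in Trp53-KO DMSO libraries and at 135, 142 and 144 CPM in clone 12 against 47.3, 50.8 and 50.2 CPM in E6l2-Trp53-KO DMSO libraries. The log2 fold changes were 0.98 to 1.51, with adjusted p of 6.09e-14 or lower. Keap1 moved little, at 45.8 to 56.8 CPM in the clones against 48.1 to 53.0 CPM. It was called lower in clone 4 (-0.10) and higher in clones 7 and 12 (0.12 and 0.09), and these calls were lost in 8, 1 and 6 alternatives.

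**Figure D5:**
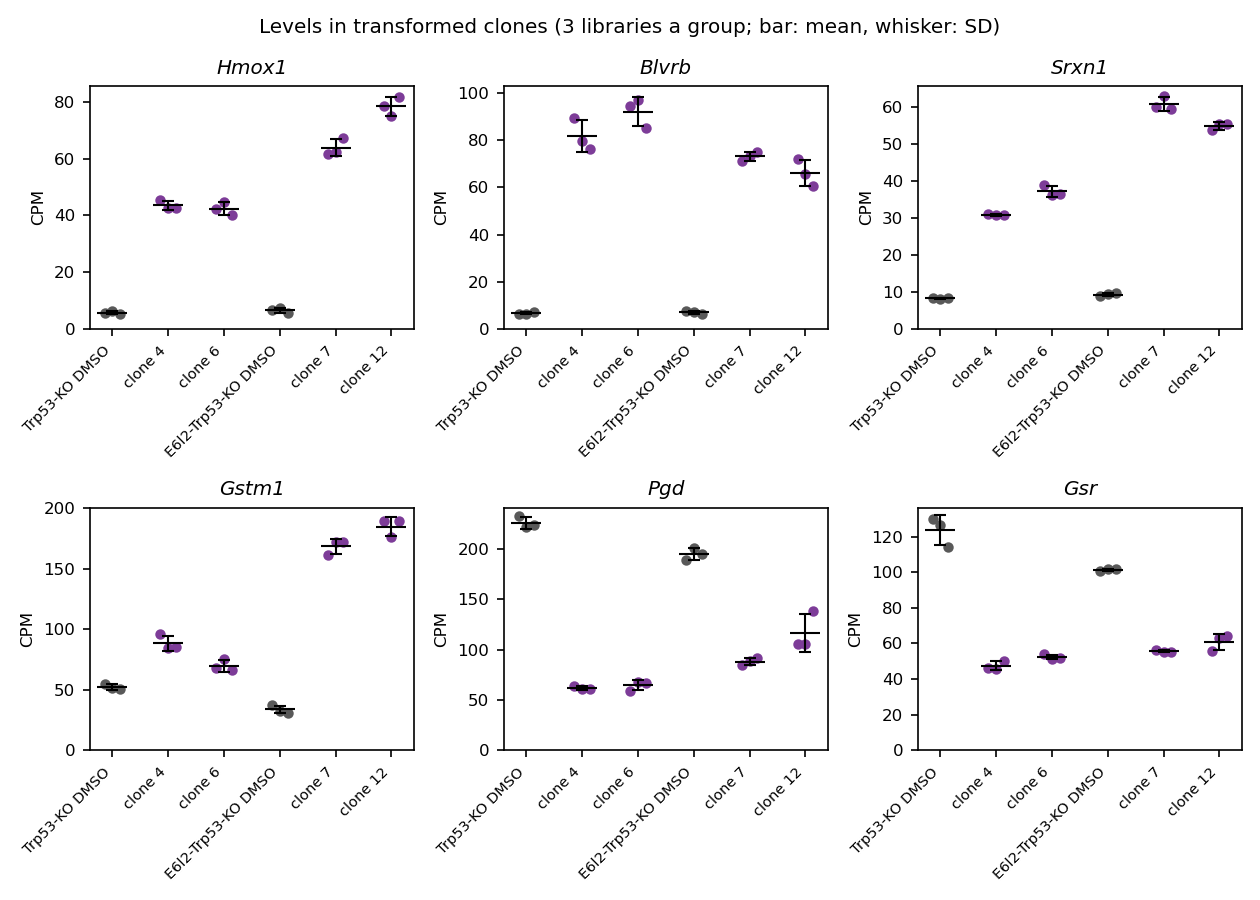
Levels in CPM (linear axes from 0) of Hmox1, Blvrb, Srxn1, Gstm1, Pgd and Gsr in the DMSO libraries of Trp53-KO and E6l2-Trp53-KO cells and in the 4 etoposide transformed clones. Each point is a library and each bar a mean with its SD over 3 libraries. Hmox1 lies at 40.2 to 81.7 CPM in the clones and 5.34 to 7.48 CPM in DMSO cells, while Pgd and Gsr lie below their DMSO level in all 4 clones.

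Glutathione transferases split. Gsta4 stood at 7.32, 7.07 and 7.86 CPM in Trp53-KO DMSO libraries and at 0.338, 0.217 and 0.217 CPM in clone 4 and 0.242, 0.0398 and 0.189 CPM in clone 6. In E6l2-Trp53-KO cells it stood at 11.2, 9.26 and 10.2 CPM in DMSO, at 0.0413, 0.109 and 0.140 CPM in clone 12 and at 0.0803, 0 and 0.0609 CPM in clone 7. The clones thus nearly lacked its transcript. Gstp1 was higher in all 4 clones by 1.60 to 2.66 on the log2 scale, for example 389, 329 and 335 CPM in clone 4 against 58.6, 58.6 and 61.4 CPM. Gstm1 rose by 0.76 and 0.42 in clones 4 and 6 and by 2.32 and 2.46 in clones 7 and 12. Mgst1 was at 2.95, 3.00 and 3.03 CPM in clone 4, 0.276, 0.358 and 0.227 CPM in clone 6, 1.00, 1.20 and 0.669 CPM in clone 7 and 4.50, 5.69 and 5.43 CPM in clone 12. Its level in DMSO was 0.0286 to 0.486 CPM, and it was called higher in the clones other than clone 6 (2.99, 2.88 and 5.36).

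Of the genes that make and recycle glutathione, 4 of 4 were lower in clones 4 and 6, 2 of 4 in clone 7 and 3 of 4 in clone 12, and Pgd, of the oxidative pentose phosphate route, was lower in all 4 clones. Pgd stood at 64.2, 61.3 and 60.6 CPM in clone 4 and at 233, 222 and 224 CPM in Trp53-KO DMSO libraries, and its log2 fold changes were -1.87, -1.81, -1.15 and -0.73 for clones 4, 6, 7 and 12. Gsr changed by -0.73 to -1.38 and Gclm by -0.46 to -0.77, and Gclc was lower in clones 4 and 6 (-0.28 and -0.17), the latter call lost without Trp53-KO DMSO replicate 2. Txnrd1 (-0.28 to -0.76) and Txn1 (-0.49 to -0.69) were lower in all 4 as well. Gpx1 changed by -0.99 to -1.09, while Gpx4 was higher by 0.42 to 1.12 and Cat by 0.28 to 1.47. Gclm and Txnrd1 carry the core in their promoters and fell, Prdx1 and Nfe2l2 carry it and rose, and G6pdx was lower in clone 4 and higher in clones 7 and 12. Me1, at 1 count in all in the Trp53-KO DMSO libraries, stood at 1.08, 1.30 and 1.02 CPM in clone 4 and 2.69, 3.18 and 3.10 CPM in clone 6. In clones 7 and 12 it stood at 0.330 to 0.562 CPM against 0 to 0.104 CPM.

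Clones of the same genotype differed from each other. Clone 6 was higher than clone 4 in 14 genes and lower in 2 (11.7% and 12.3% of all genes, 24% called). The largest of these differences were -3.38 ± 0.27 for Mgst1 and 1.43 ± 0.19 for Me1 on the log2 scale, and Hmox1 was not called (-0.04 ± 0.060, adjusted p = 0.659). The call for Ftl1 (0.32) was lost in 9 alternatives, among them that with Ftl1-ps1 summed (0.19, adjusted p = 0.106). Clone 12 was higher than clone 7 in 6 genes and lower in 4 (8.64% and 4.78% of all genes, 13.4% called), with 2.49 ± 0.19 for Mgst1, 1.48 ± 0.13 for Mgst2 and 0.30 ± 0.057 for Hmox1. Clone 12 replicate 3, with 114 M counts, and clone 4 replicate 3, with 68.4 M, are much deeper than the other libraries. Without them 5 genes were called between clones 12 and 7.

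To compare the genotypes among transformed cells, a clone's 3 libraries were added up, which set 2 clones against 2 and left 15865 genes tested. Of the 34 genes 9 were higher and 4 lower in E6l2-Trp53-KO clones than in Trp53-KO clones, where 15.3% of all genes were higher and 13.8% lower (29.1% called). Higher were Gstm1 (1.20 ± 0.13 on the log2 scale, adjusted p = 0.00315), Mgst3 (1.67 ± 0.26), Cat (0.94 ± 0.10), Pgd (0.80), Srxn1 (0.78 ± 0.12, adjusted p = 0.00769), Hmox1 (0.77 ± 0.12, adjusted p = 0.0102), Prdx1 (0.57), G6pdx (0.48) and Txnrd1 (0.39). Lower were Me1 (-2.20), Prdx6 (-0.63), Gstp1 (-0.60) and Osgin1 (-0.58). Nfe2l2 (0.19 ± 0.097) and Keap1 (0.19 ± 0.076) were not called. When a clone was left out 6 to 10 genes were called, fewest without Trp53-KO clone 4, where Hmox1 at 0.78 was no longer called. Of these 13 genes, Gstm1, Cat and Srxn1 were called whichever clone was left out, and the calls for Osgin1 and Txnrd1 were also lost with the offsets.

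Beyond these 34 genes, 76 further genes of the NRF2, glutathione, thioredoxin, haem and iron pathways had been listed, of which 68 were tested in untransformed and 71 in transformed cells. Etoposide raised 29 and lowered 5 of them in wildtype cells, raised 32 and lowered 4 in E6l2-KO cells, changed 0 in Trp53-KO cells, and raised 5 and lowered 9 in E6l2-Trp53-KO cells, against the shares of all genes given above. The counts for E6l2-Trp53-KO cells include Etoposide replicate 3 and were not repeated without it. Cbr3, a carbonyl reductase, rose in E6l2-KO cells from 3.29 ± 0.54 to 5.07 ± 0.24 CPM (SD, n = 3), and Txn2, mitochondrial thioredoxin, from 62.8 ± 2.40 to 88.6 ± 8.49 CPM. Ireb2, an iron regulatory protein that blocks ferritin translation, fell in wildtype cells from 44.5 ± 3.51 to 26.7 ± 0.12 CPM (-0.73 on the log2 scale), and its response in Trp53-KO cells differed by 0.73. The response of Trp53-KO cells was lower than that of wildtype cells in 19 of the 68 and higher in 2. Of all genes 11.1% were lower and 12.1% higher. High density raised 27 and lowered 10 of the 68 in wildtype cells, where 24.9% of all genes were higher and 23.6% lower. Chac1, which degrades glutathione, rose from 7.55 ± 0.91 to 27.6 ± 1.58 CPM, and Txnip, an inhibitor of thioredoxin, from 68.4 ± 3.17 to 245 ± 40.2 CPM. Tfrc, the transferrin receptor that takes up iron, fell in Trp53-KO cells from 645 ± 46.1 to 238 ± 35.4 CPM.

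In the clones 36 to 41 of the 71 further genes tested were higher and 22 to 26 lower than in DMSO, where 38.5% to 41.7% of all genes were higher and 38.7% to 39.3% lower. Bach2, a repressor that competes with NRF2, stood at 23.6 to 29.3 CPM in the means of the clones, and its means in DMSO cells were 0.023 CPM (Trp53-KO) and 0.091 CPM (E6l2-Trp53-KO). Tfrc stood at 39.4 to 53.0 CPM in the means of the clones, against 614 and 526 CPM. Alas1, the first enzyme of haem synthesis, stood at 7.67 to 21.2 CPM against 63.3 and 37.1 CPM. Slc40a1, the iron exporter ferroportin, was highest in clone 12 at 7.69 ± 0.50 CPM against 0.107 ± 0.095 CPM in its DMSO cells. Gstm5 was at 9.69 and 9.96 CPM in clones 4 and 6 and at 0.74 and 0.64 CPM in clones 7 and 12, a difference between genotypes of -3.94 on the log2 scale. Tfrc and Alas1 were thus lower in the same 4 clones in which Hmox1 and Fth1 were higher.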

How the data were processed

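RNA from sorted Cas9-Hoxb8 cells was extracted with the PicoPure kit, made into TruSeq RNA V2 libraries and sequenced on a NovaSeq, per the labels' protocols, which also name the SUSHI pipeline. For the aligner, counter, genome build and annotation, nothing is given in the sources used here. The authors deposited 1 table of estimated counts for 25528 genes in 48 libraries. Of its nonzero values 58.13% lie within 0.01 of a whole number, and they were rounded. No sample column was left unused.

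Genes passing filterByExpr were tested with edgeR 4.0.16 (R 4.3.3): TMM scaling, 1 coefficient per group, quasi-likelihood F tests, Benjamini-Hochberg adjustment over all genes tested, and a call at an adjusted p under 0.05. The standard error of a log2 fold change is its size over the root of F. Fits were made for the 36 untransformed libraries (24 residual degrees of freedom), for the 12 clone libraries with 6 DMSO libraries (12) and for the summed clones. With 25 contrasts, adjustment was within each contrast. Transcript length and GC share came from GENCODE M21 (25475 of 25528 identifiers matched) and promoters from RefSeq. The test was checked on simulated counts.

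The alternatives were DESeq2 1.42.0, RLE size factors, offsets for length and GC share, no low-count filter, the groups alone, a replicate block, leaving out each library or clone, leaving out transformed libraries over 60 M counts, and Ftl1 summed with Ftl1-ps1, also without E6l2-Trp53-KO Etoposide replicate 3. The sums were added after seeing the data. The genes and lists were chosen with earlier results of these data known. Values by library are given for Nfe2l2, Keap1, Nqo1, Hmox1 and, per block of comparisons, up to 6 called genes with the largest change and at least 5 CPM; the other genes so given were chosen after their values were seen. Of the further pathway genes up to 3 in each direction per block could be named.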

Additional observations from a re-analysis of the deposited data

Results flagged for a closer look

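The etoposide response differed between Trp53-KO and wildtype cells in 14 genes by edgeR's test of the difference itself, and each was lower in Trp53-KO cells. On the log2 scale the differences were -0.67 for Ftl1, -0.54 for Fth1, -0.44 for Srxn1, -0.41 for Slc48a1, -0.40 for Txn1, -0.39 for Sod1 and -0.36 for Gclm. They were -0.35 for Gstp1, -0.33 for Taldo1, -0.32 for Nfe2l2, -0.29 for Tkt, -0.29 for Sod2, -0.24 for Prdx1 and -0.23 for Prdx6. With Ftl1-ps1 summed, the difference of the ferritin light chain was -0.56 (adjusted p = 0.00757). Groups of 3 libraries were not given a separate test for single stray libraries. With each library left out in turn, 12 to 20 genes were called for this difference. The calls for Prdx1, Sod2 and Prdx6 were lost in some of these fits.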

How the results depend on the processing

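Counts of genes called for etoposide in wildtype, E6l2-KO and Trp53-KO cells, for high density, and for each clone against DMSO stayed within 1.5 times the reported count in every alternative. Apart from DESeq2, the number of all genes called was not counted in the alternatives. Signs turned for Ftl1 with etoposide in E6l2-Trp53-KO cells (0.37 when summed with Ftl1-ps1, where Etoposide replicate 3 is the high library, and 0.08 without it) and for Keap1 at high density in wildtype cells (-0.13 with the offsets, with or without the replicate block). In E6l2-Trp53-KO cells etoposide gave 2 calls with the groups alone and 3 to 14 with a library left out. For E6l2-KO against wildtype in DMSO there was 1 call with RLE, without the filter and with the offsets, and 0 to 1 with a library left out. For Trp53-KO against wildtype in DMSO there were 5 without the filter and 0 to 2 with a library left out, and for E6l2-Trp53-KO against E6l2-KO 9 with the offsets, with or without the block, 10 alone and 3 to 6 with a library left out. The etoposide response of E6l2-KO against wildtype gave 2 calls by DESeq2, 1 with block and offsets and 3 alone. That of E6l2-Trp53-KO against Trp53-KO gave 2 without the filter, 1 with the offsets, by DESeq2, with the block and with both, and 0 to 2 with a library left out, and the density response of the same pair 0 to 1. Clone 12 against clone 7 gave 5 without the deepest libraries and 6 to 14 with a library left out (6 without clone 12 replicate 3), and the summed clones 6 to 10 with a clone left out. The cause of these shifts was not tested. The difference between Trp53-KO and wildtype responses gave 13 calls with the offsets, 12 lower and Gpx1 higher, and 12 to 20 with a library left out.

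Replicate numbers did not pair libraries: same-numbered deviations correlated between -0.234 and 0.252 over 18 contrasts, and in 0 of them was every correlation over 0.1. In 1, etoposide in Trp53-KO cells, every library correlated best with its own number. With the replicate block 21 genes were called for etoposide in wildtype cells, 25 in E6l2-KO, 0 in Trp53-KO and 6 in E6l2-Trp53-KO cells, and 16 for the difference between Trp53-KO and wildtype. Over single genes and contrasts the block added 8 calls and lost 0, RLE added 12 and lost 3, DESeq2 added 16 and lost 8, and the offsets added 25 and lost 19. Genes under 1 CPM (Nqo1, Osgin1, Mgst1, Me1) rest on few counts.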
